A study of Mus musculus with 23 samples.

Results

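The genes described here mark the tissues that line and fill the ventricles of the brain: 28 genes of the choroid plexus and 10 genes of ciliated ependymal cells, 38 in all. They were taken from a list of gene symbols and kept where the normalized count was 10 or more in at least 5 of the 23 libraries. By that rule 33 of the 38 were kept, 23 of 28 choroid plexus members and 10 of 10 ependymal members, among 16385 genes kept of the 27178 in the table. The 5 members not kept were Slc4a5, Cldn2, Tmem72, Kcne2 and Steap1, all of the choroid plexus. Of those kept, Slco1a5 reached 10 in 5 libraries and Calml4 in 9, while Cldn2 and Kcne2 reached it in 3 and the other 3 members not kept in 2.

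Polyadenylated RNA was sequenced from orbitofrontal cortex (OFC) of wild-type male C57BL/6J mice, with the age given as 8 weeks. On day 0 the OFC received an AAV6 vector with the GFAP promoter, which is active in astrocytes, driving ZBTB7A (a zinc-finger transcription factor) or, as the control vector, GFP. Some mice met a subthreshold social defeat, a mild exposure to an aggressor, on day 21 and the others a control condition; behavioural tests ran on days 22 to 27, and tissue was taken on day 28. The groups were ZBTB7A stress (n = 5), ZBTB7A control (n = 5), GFP stress (n = 8) and GFP control (n = 5). All 4 groups carried a vector and went through the behavioural tests, so none was untreated. One field of the labels gives the stress for every sample, and the groups were taken from the field that separates stress from control. A library is named here after its group and title number. The labels do not say that each library came from a separate mouse, so p-values measure the spread between these samples.

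The choroid plexus is a folded epithelium that hangs into the ventricles and secretes cerebrospinal fluid. Its cells carry ion and water transporters, are sealed by tight junctions and release carrier proteins such as transthyretin. Ependymal cells line the ventricle wall and move the fluid with bundles of motile cilia, whose genes are switched on by the transcription factor FOXJ1 together with RFX factors. The choroid epithelium is ciliated as well, so cilium genes need not tell the tissues apart. Several choroid plexus members (Trpm3, Aqp1, Slc13a4, Cldn1, Col8a1 and Sulf1 among them) are also known from neurons, vessels or the meninges. OFC itself contains no ventricle.

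Because the ependymal members moved together across libraries, promoters were read for the RFX motif GTTGCC and the forkhead motif GTAAACA, and also for the OTX2 core TAATCC. Each motif was read in the promoters of all members, on both strands. The motifs do not overlap one another in the promoters shown. RefSeq promoters on GRCm38.p6 (300 bases each) were matched for 28 of the 38 members, 21 of the choroid plexus with 29 promoters and 7 ependymal with 7. Ttr, Folr1, Foxj1, Clic6, Sostdc1, Lbp, Sulf1, Perp, Rarres2 and Rsph1 had no entry. The RFX motif was in 4 of 7 ependymal promoters (57.1%), in 17.2% of the choroid plexus promoters and in 12.5% of all 32851 promoters. The choroid plexus share is 5 of 29 promoters, from 4 of 21 members, and overlapping promoters of Otx2 that share a match are counted apart in it. The 250 bases before the start of Ccdc153 (chr9:44240427-44240676, plus strand), Dynlrb2 (chr8:116504765-116505014, plus strand) and Hydin (chr8:110266727-110266976, plus strand) show it in capitals. The leftmost base of the match is at -152, -51 and -13 from the start; in Hydin it is on the other strand and reads GGCAAC.
Ccdc153: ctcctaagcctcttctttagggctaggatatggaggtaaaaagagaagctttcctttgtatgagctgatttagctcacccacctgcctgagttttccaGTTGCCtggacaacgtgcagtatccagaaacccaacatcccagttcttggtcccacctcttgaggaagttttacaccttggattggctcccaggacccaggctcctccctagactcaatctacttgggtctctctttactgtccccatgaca
Dynlrb2: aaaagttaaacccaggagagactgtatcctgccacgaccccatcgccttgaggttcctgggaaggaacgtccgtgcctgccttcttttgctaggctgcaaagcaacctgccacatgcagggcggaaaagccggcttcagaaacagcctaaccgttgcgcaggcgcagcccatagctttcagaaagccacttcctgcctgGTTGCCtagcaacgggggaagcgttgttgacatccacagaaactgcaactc
Hydin: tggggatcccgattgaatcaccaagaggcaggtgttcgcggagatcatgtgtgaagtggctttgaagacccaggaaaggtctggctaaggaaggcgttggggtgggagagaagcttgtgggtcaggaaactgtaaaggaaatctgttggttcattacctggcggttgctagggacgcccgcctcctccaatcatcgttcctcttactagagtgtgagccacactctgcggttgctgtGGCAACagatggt
In Spef2 the match begins 9 bases after the start. The forkhead motif was in the promoter of Ak7 (chr12:105705732-105705981, plus strand, match at -131 on the other strand, in capitals) and of Prlr, and in 3.65% of all promoters.
Ak7: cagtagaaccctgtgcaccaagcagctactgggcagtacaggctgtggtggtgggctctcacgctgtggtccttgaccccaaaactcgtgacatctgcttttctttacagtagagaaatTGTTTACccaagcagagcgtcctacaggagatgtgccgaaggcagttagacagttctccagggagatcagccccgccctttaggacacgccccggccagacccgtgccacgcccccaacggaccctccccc
The OTX2 core was in 1 choroid plexus member, Otx2 itself, and 1 ependymal member, Dnah11, against 7.06% of all promoters. A match is only a run of letters and shows no binding.

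Sequencing gave 12479203 to 51866578 recovered reads per library. Zbtb7a itself was not higher in the libraries labelled ZBTB7A, with 3744 ± 173 (SD, n = 5) in ZBTB7A stress against 3934 ± 251 (n = 8) in GFP stress, and 3716 ± 247 (n = 5) in ZBTB7A control against 3834 ± 629 (n = 5) in GFP control. The libraries are therefore named by their labels, and the vector's own transcript was not analysed here. In the fit of log2(normalized count + 1) with limma, 0 of 16385 genes passed a Benjamini-Hochberg adjusted p under 0.05 in any of the 6 contrasts, and edgeR on recovered reads called 0 as well. At an unadjusted p under 0.05 there were 272 to 2635 genes per contrast, and DESeq2 called 0 to 46. In the main limma fit and in edgeR, the group differences given here thus did not pass over all genes. They are read as values with their errors. Calls of members by DESeq2 or in other settings are given where they occur.

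The libraries GFP control 1 and GFP control 10 stood apart from the other 21 in the choroid plexus members. Ttr, which encodes the thyroid hormone and retinol carrier transthyretin, was at 7567 and 4890 normalized counts in these libraries and at 3.09 to 844 (median 27.1) in the others, so that 79.2% of all its signal lay in both together. Both libraries were above every other library for 13 of 28 choroid plexus members and for 0 of 10 ependymal members. Among the choroid plexus members kept this was 8 of 23 (34.8%), against 230 of all tested genes (1.4%).

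The 5 members not kept also had their highest values in this pair of libraries, which held 35.2% (Steap1) to 68.0% (Slc4a5) of their summed signal. A gene high in so few libraries fails the rule for being kept, so that rule partly fixes this result. The sodium bicarbonate cotransporter gene Slc4a5 was at 70.5 in GFP control 1 and 53.3 in GFP control 10, and at 0 to 6.96 in the other libraries. Tmem72, a transmembrane protein gene, was at 35.3 and 37.3, against at most 6.19 elsewhere, and the tight junction gene Cldn2 was at 44.1 and 49.3, against at most 10.2. Kcne2, a potassium channel subunit gene, was at 50.4 and 26.7, against at most 10.1, and Steap1 at 25.8 and 28, against at most 8.74. In brain these genes are largely restricted to choroid epithelium, and outside the pair of libraries they were near the lower limit of counting. The medians of the members, and the members named in the comparisons of 2 groups that use GFP control, are therefore also given without this pair, an alternative added after the data were seen.

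**Figure D1:**
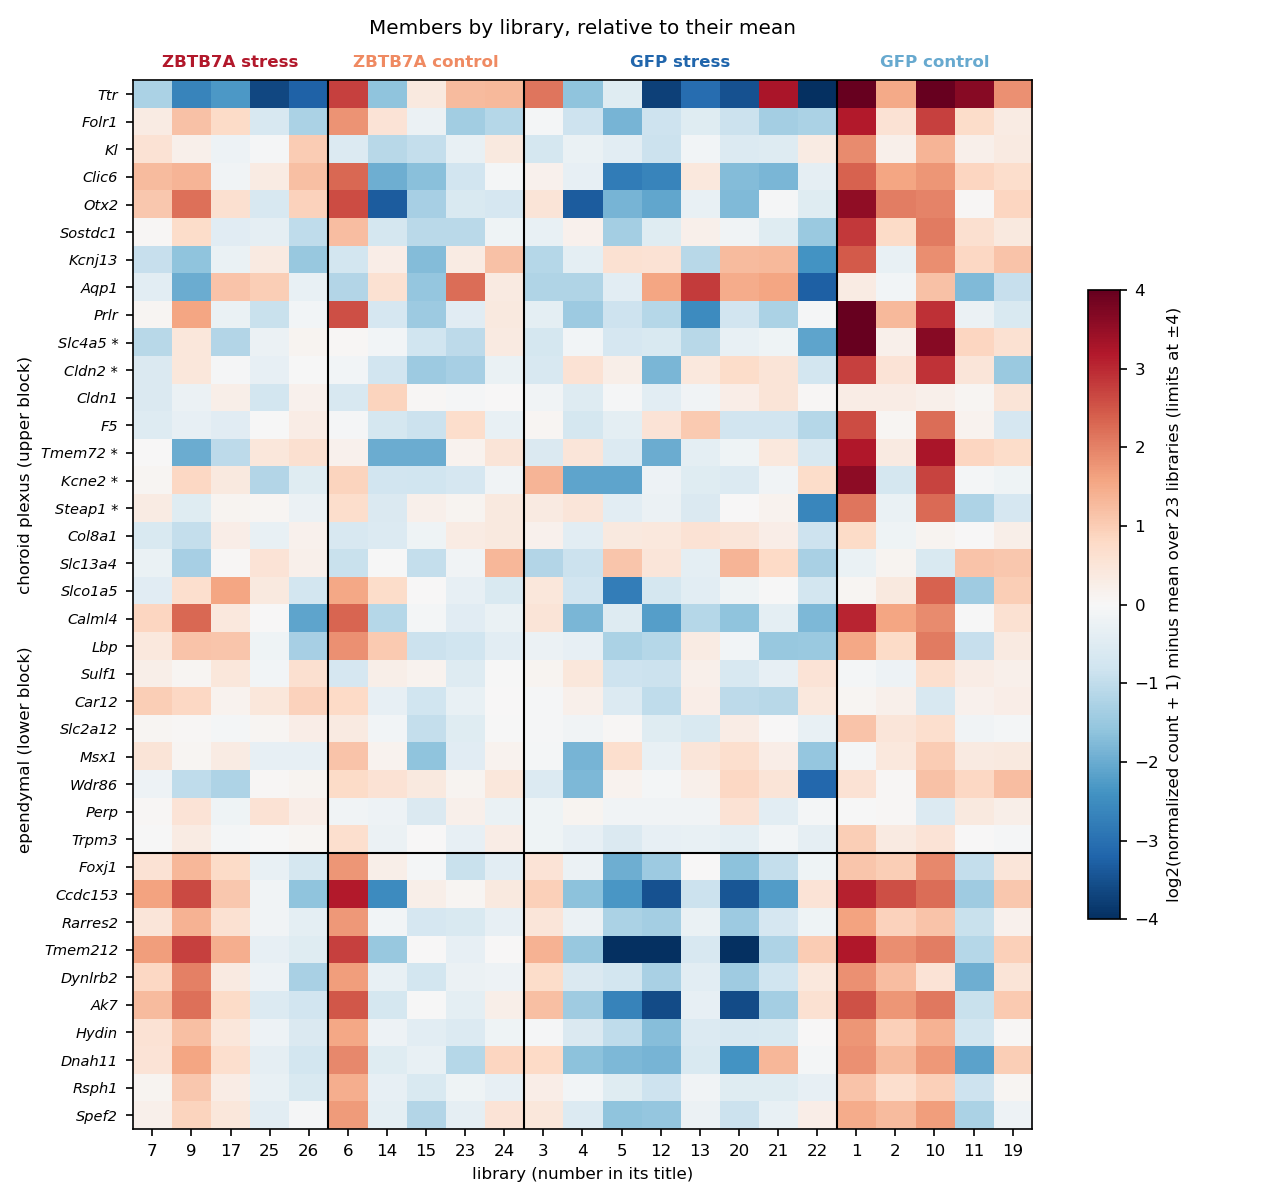
Level of the 38 members (rows; an asterisk marks the 5 not kept) in the 23 libraries (columns, ordered by group), as log2(normalized count + 1) minus the member's mean over libraries. The strongest red of the upper block lies in GFP control 1 and 10, and the lower block rises and falls as one from library to library, with its highest values in ZBTB7A control 6 and GFP control 1 and its lowest in GFP stress 5, 12 and 20.

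Among the secreted and uptake proteins of the choroid plexus, Ttr had the widest spread. It was at 4.45, 6.25, 9.89, 12.9 and 27.1 normalized counts in ZBTB7A stress, at 21.1, 87.8, 162, 165 and 449 in ZBTB7A control, at 3.09 to 655 (median 14.1) in GFP stress, and at 194, 241, 844, 4890 and 7567 in GFP control. The 5 ZBTB7A stress libraries were all low, while GFP stress held both the lowest value and one above all ZBTB7A control libraries. Folr1, the folate receptor that carries folate across the epithelium, was at 3.13, 5.33, 11.5, 15.6 and 21.4 in ZBTB7A stress, at 2.78, 3.46, 7.44, 13.5 and 33.2 in ZBTB7A control, at 1.74 to 8.39 (median 4.48) in GFP stress, and at 11.3, 13.7, 15.5, 64.0 and 88.8 in GFP control. All 8 GFP stress libraries lay below all 5 GFP control libraries. Both genes did not always go together: GFP stress 21 had 655 for Ttr and 2.87 for Folr1, and GFP control 11 had 844 and 15.5.

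Klotho (Kl), a co-receptor for fibroblast growth factor 23 that the choroid plexus makes in large amounts, was detected in every library. It was at 71.6, 80.0, 93.9, 123 and 165 in ZBTB7A stress, at 37.6, 41.7, 56.0, 66.7 and 108 in ZBTB7A control, at 44.8 to 102 (median 59.0) in GFP stress, and at 93.6, 95.1, 106, 213 and 309 in GFP control. GFP stress and GFP control overlapped by 1 library, GFP stress 22. Otx2, the homeobox transcription factor needed for choroid plexus formation, was at 5.33, 14.7, 17.7, 20 and 44.5 in ZBTB7A stress, at 0, 2.98, 5.19, 5.56 and 59.4 in ZBTB7A control, at 0 to 13.4 (median 4.04) in GFP stress, and at 9.28, 16.9, 38.6, 40.3 and 115 in GFP control. It was at 0 in GFP stress 4 and ZBTB7A control 14, and ZBTB7A control 6 was far above the rest of its group. Sostdc1, a secreted antagonist of BMP and Wnt signals, ranged over 4.69 to 18.1 in ZBTB7A stress, 4.45 to 26.2 in ZBTB7A control, 3.09 to 12.2 in GFP stress and 14.1 to 81.2 in GFP control, without overlap between the GFP groups.

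Of the channels and transporters, Clic6, a chloride intracellular channel protein, was at 70.7, 100, 183, 193 and 206 in ZBTB7A stress, at 19.6, 23.8, 45.6, 74.4 and 390 in ZBTB7A control, at 10.4 to 105 (median 42.3) in GFP stress, and at 130, 143, 237, 268 and 410 in GFP control. Every GFP stress library was below every GFP control library, and 4 of 5 ZBTB7A control libraries were below every GFP control library. Trpm3, a calcium-permeable cation channel, was at 673, 700, 705, 753 and 891 in ZBTB7A stress, at 570, 611, 716, 868 and 1145 in ZBTB7A control, at 481 to 655 (median 568) in GFP stress, and at 691, 715, 922, 1035 and 1416 in GFP control. GFP stress lay below both ZBTB7A stress and GFP control without overlap. Car12, a membrane carbonic anhydrase, was at 427, 525, 684, 732 and 770 in ZBTB7A stress, at 223, 309, 317, 393 and 673 in ZBTB7A control, at 178 to 522 (median 317) in GFP stress, and at 249, 407, 438, 449 and 461 in GFP control. Its median was highest in ZBTB7A stress, where 4 of 5 libraries were above every GFP stress library.

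Some choroid plexus members followed another order. The water channel Aqp1 was highest in GFP stress 13 at 481, where 12 meningeal fibroblast genes (Dcn, Lum and collagen genes among them) also had their highest summed level of 24861, against 1097 to 4838 in the other libraries. By mean centred log2 level, these meningeal genes were at 1.15 in both GFP stress 13 and GFP stress 20, where Aqp1 was at 193 in the latter. ZBTB7A control 23, with Aqp1 at 325, had a meningeal level of 0.32. The part of the meningeal genes in the level of Aqp1 was not tested. The sulfate transporter Slc13a4 was highest in GFP stress 20 at 451, ZBTB7A control 24 at 442 and GFP control 11 at 394, with ependymal levels (mean centred log2 values) of -1.99, 0.06 and -1.22. Cldn1, Col8a1, Perp and Sulf1 varied 2.28-fold to 3.35-fold between the highest and lowest library, against 2452-fold for Ttr and 140-fold for the prolactin receptor Prlr.

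Among the ependymal members, Foxj1, the regulator of motile cilia, was at 180, 236, 437, 494 and 732 in ZBTB7A stress, at 157, 220, 274, 345 and 998 in ZBTB7A control, at 74.6 to 424 (median 200) in GFP stress, and at 149, 408, 584, 635 and 1109 in GFP control. Ccdc153, a coiled-coil protein gene, was at 9.38, 27.6, 65.2, 94.7 and 196 in ZBTB7A stress, at 4.51, 32.3, 35.7, 39.8 and 282 in ZBTB7A control, at 1.83 to 60.4 (median 7.37) in GFP stress, and at 10.8, 64.9, 148, 186 and 266 in GFP control. In both genes ZBTB7A control 6 was far above the rest of its group and GFP control 11 far below the rest of its own, and all groups overlapped. Without GFP control 11, GFP stress and GFP control still overlapped for Foxj1 but not for Ccdc153. That library was picked for its low values, so the separation in Ccdc153 follows from the choice and is no test. Ak7, an adenylate kinase of cilia, ranged over 28.7 to 229 in ZBTB7A stress, 30.1 to 283 in ZBTB7A control, 3.18 to 116 in GFP stress and 26.3 to 292 in GFP control. Tmem212, a transmembrane protein gene, was at 0 in GFP stress 5, 12 and 20 and reached 40.3 in GFP stress 3, against 6.19 to 144 in GFP control.

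**Figure D2:**
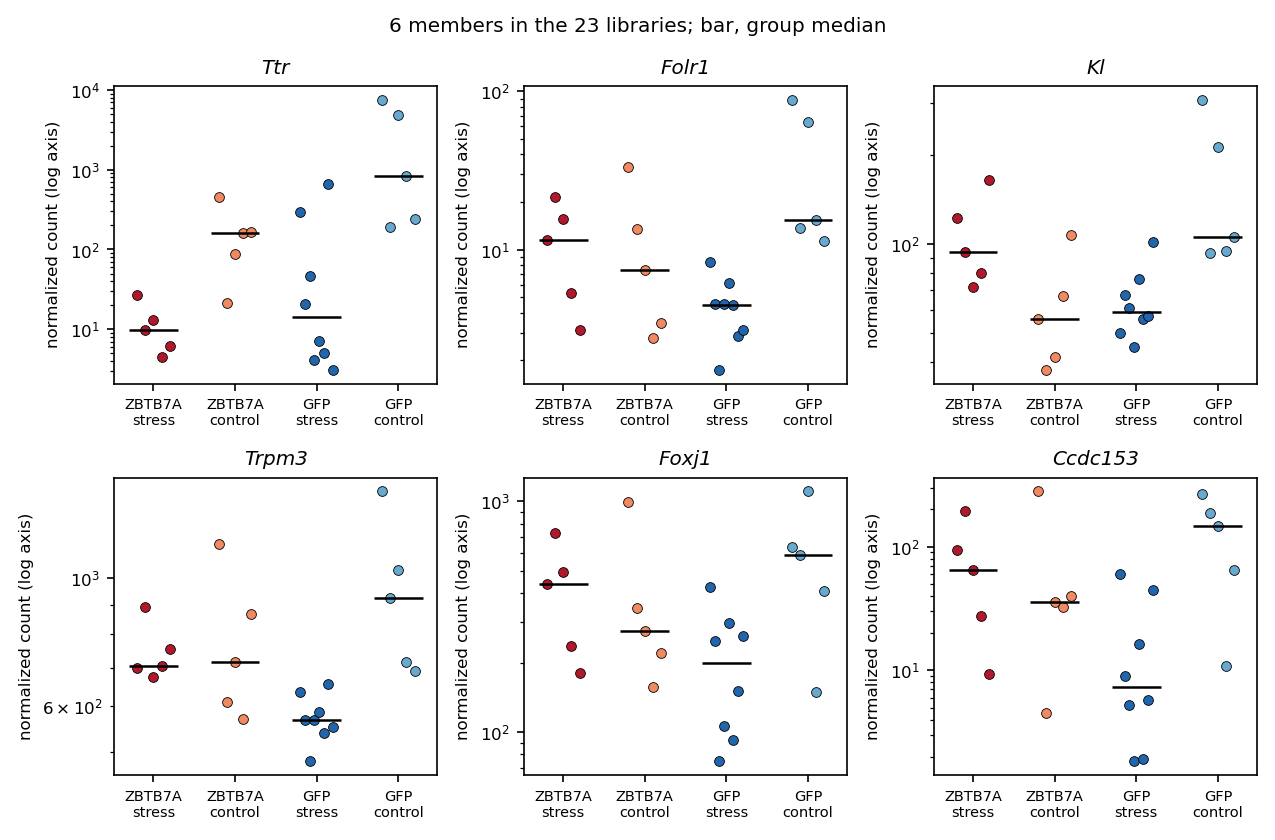
Normalized counts (log axis) of 4 choroid plexus members (Ttr, Folr1, Kl, Trpm3) and 2 ependymal members (Foxj1, Ccdc153) in each library, by group; bars are group medians. For Folr1 and Trpm3 all 8 GFP stress libraries lie below all 5 GFP control libraries, while for Foxj1 and Ccdc153 these groups overlap.

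The ependymal members moved as one unit across libraries. With group means removed, Pearson's r with Foxj1 over the 23 libraries was 0.78 to 0.94 for the other 9 ependymal members, highest for the chemerin gene Rarres2 and lowest for the dynein heavy chain gene Dnah11. Among the choroid plexus members it ran from 0.78 for Lbp (lipopolysaccharide-binding protein) and 0.77 for Folr1 to -0.78 for Slc13a4, with 0.28 for Ttr. These are descriptions: the points are the same libraries, each with 1 depth, 1 scaling factor and 1 tissue sample behind all its genes.

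Before group means were removed, 4 pairs were related over all 23 libraries, with Benjamini-Hochberg adjustment over the 8 coefficients and 100000 permutations. Libraries were shuffled without regard to group, so these p-values also take in differences between groups. The adjustment does not cover the choice of the pairs. Foxj1 and Ccdc153 had r = 0.87 and rho = 0.87 (permutation p = 1e-05 each, the smallest possible; adjusted 2.67e-05), and r = 0.87 without the pair of libraries farthest in Foxj1. Folr1 and Foxj1 had r = 0.82 (permutation p = 1e-05, adjusted 2.67e-05) and rho = 0.81 (permutation p = 3e-05, adjusted 6e-05), with r = 0.80 without GFP control 1 and 10. Folr1, listed here with the choroid plexus, thus went with the ependymal regulator, but not with it alone. With group means removed, r with Folr1 was 0.84 for Lbp and 0.81 for Sostdc1, both choroid plexus members, and 0.77 for Foxj1. Among the choroid plexus members it ran down to -0.59, for Slc13a4. Ttr and Folr1 had r = 0.59 (permutation p = 0.00318, adjusted 0.00509) and rho = 0.42 (permutation p = 0.0458, adjusted 0.0611), but r = 0.25 without GFP control 1 and 10, on which the relation rests. Aqp1 and Folr1 had r = -0.10 (permutation p = 0.662, adjusted 0.662) and rho = -0.19 (permutation p = 0.378, adjusted 0.432), and r = -0.21 without the pair of libraries farthest in Aqp1. The title numbers pass through the 4 groups 3 times, in runs of 8, 7 and 8 libraries (runs 1, 2 and 3). ZBTB7A control 6 in run 1, ZBTB7A stress 17 in run 2 and GFP control 19 in run 3 were the only libraries of their groups there. Group differences within runs that use them rest on that library alone on its side. Within these runs r was 0.93, 0.84 and 0.87 for Foxj1 and Ccdc153, 0.84, 0.80 and 0.58 for Folr1 and Foxj1, 0.66, 0.82 and 0.09 for Ttr and Folr1, and 0.20, -0.09 and -0.18 for Aqp1 and Folr1.

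The comparison of GFP stress with GFP control (n = 8 and 5) asks what the mild defeat did under the control vector, and here the members stood lower in GFP stress. In limma 0 of 33 members passed (0.0% of all genes), and the smallest adjusted p among them was 0.32. At an unadjusted p under 0.05, 14 of 23 choroid plexus members and 9 of 10 ependymal members were lower in GFP stress, against 7.96% of all tested genes, and 0 members were higher (3.27%). The log2 fold change was below 0 in 22 of 23 and 10 of 10 (51.6% of all genes), with medians of -1.14 and -1.39 against -0.01 over all genes. In bulk tissue, fewer cells of a type and less RNA per cell cannot be told apart. GFP stress and GFP control did not overlap for Folr1, Clic6, Sostdc1 and Trpm3, 4 choroid plexus members all lower in GFP stress (0.256% of all genes), while 0 members were higher without overlap (0.116%).

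Ttr differed most. Its level was 130 ± 235 in GFP stress and 2747 ± 3326 in GFP control (SD, n = 8 and 5), a log2 fold change of -5.37 ± 1.17 (SE; adjusted p = 0.32; exact two-sided permutation p = 0.00777). Folr1 was at 4.46 ± 2.07 in GFP stress and 38.6 ± 35.6 in GFP control, a log2 fold change of -2.45 ± 0.56 (adjusted p = 0.32; exact permutation p = 0.000777, the smallest possible). Otx2 had a log2 fold change of -2.86 ± 0.79 (exact permutation p = 0.00311, n = 8 and 5), Kl of -1.19 ± 0.30 (exact permutation p = 0.00233) and Trpm3 of -0.69 ± 0.16 (exact permutation p = 0.000777). These 5 are only part of the choroid plexus list, and Trpm3 among them is also known from other tissues. Its values in GFP stress were still 481 to 655. The differences nearest 0 were those of Col8a1 at -0.06 ± 0.26, the desmosome-associated gene Perp at -0.08 ± 0.17 and Slc13a4 at -0.29 ± 0.49, and Aqp1 was the 1 member above 0, at 0.43 ± 0.86 (log2, SE).

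Of the ependymal members, Ccdc153 was at 18.1 ± 22.1 in GFP stress and 135 ± 100 in GFP control (SD, n = 8 and 5), a log2 fold change of -3.07 ± 0.94 (SE; adjusted p = 0.326; exact permutation p = 0.0140). Ak7 had -2.71 ± 0.80 (exact permutation p = 0.0186, n = 8 and 5) and Foxj1 -1.44 ± 0.50 (adjusted p = 0.347; exact permutation p = 0.0287). Hydin, a protein of the central pair of motile cilia, had -1.33 ± 0.41, and Tmem212 -3.00 ± 0.96. The smallest difference was that of the radial spoke gene Rsph1 at -0.72 ± 0.34, and only the dynein light chain gene Dynlrb2 (-0.94 ± 0.58) missed an unadjusted p of 0.05. For Foxj1, Folr1 and Ttr the direction held in each of the 3 number runs. The differences were -1.61, -1.19 and -1.40 for Foxj1, -2.80, -2.38 and -1.48 for Folr1, and -4.16, -8.30 and -3.26 for Ttr. Those of run 3 rest on GFP control 19 alone on the control side. Not all members kept 1 direction, as with Aqp1 at -1.05, 2.48 and 0.86 and Slc2a12 at -0.86, -0.81 and 0.09.

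Without GFP control 1 and 10 the differences were smaller. The median was -0.64 for the choroid plexus members, with 21 of 23 below 0 and 8 lower at an unadjusted p under 0.05 (3.74% of all genes), and -0.77 for the ependymal members, with 10 of 10 below 0 and 1 lower. Ttr then had a log2 fold change of -3.71 ± 1.29, Folr1 of -1.49 ± 0.57, Kl of -0.64 ± 0.28, Otx2 of -2.15 ± 0.92 and Trpm3 of -0.43 ± 0.15, with 95% intervals that left out 0 (n = 8 and 3). So did those of Clic6 at -2.18 ± 0.77, Sostdc1 at -1.08 ± 0.47, Calml4 at -1.85 ± 0.77 and Ak7 at -2.04 ± 0.96. These intervals are not adjusted for the number of genes, and the adjusted limma p of all these members was 0.913 to 0.918. The intervals of the other 9 ependymal members held 0, with Ccdc153 at -2.30 ± 1.13, Tmem212 at -2.18 ± 1.15, Foxj1 at -0.90 ± 0.58, Hydin at -0.73 ± 0.44, Dynlrb2 at -0.44 ± 0.67 and Rsph1 at -0.30 ± 0.39. The choroid plexus members Col8a1 at 0.10 ± 0.30, Perp at -0.28 ± 0.19, Slc13a4 at -0.78 ± 0.57 and Aqp1 at 1.10 ± 1.03 also had intervals that held 0. F5, the coagulation factor V gene, had -1.14 ± 0.47 with the pair and -0.11 ± 0.40 without it. On recovered reads edgeR called 0 members. DESeq2 called 8 choroid plexus members lower (Kl, Otx2, Prlr, Trpm3, Folr1, Calml4, Sostdc1 and Ttr). Over all genes it called 39 in either direction (0.238%), 36 of them lower. Limma with array weights called 14 members (4.08% of all genes), 6 of them ependymal, and gave a choroid plexus median of -0.68.

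**Figure D3:**
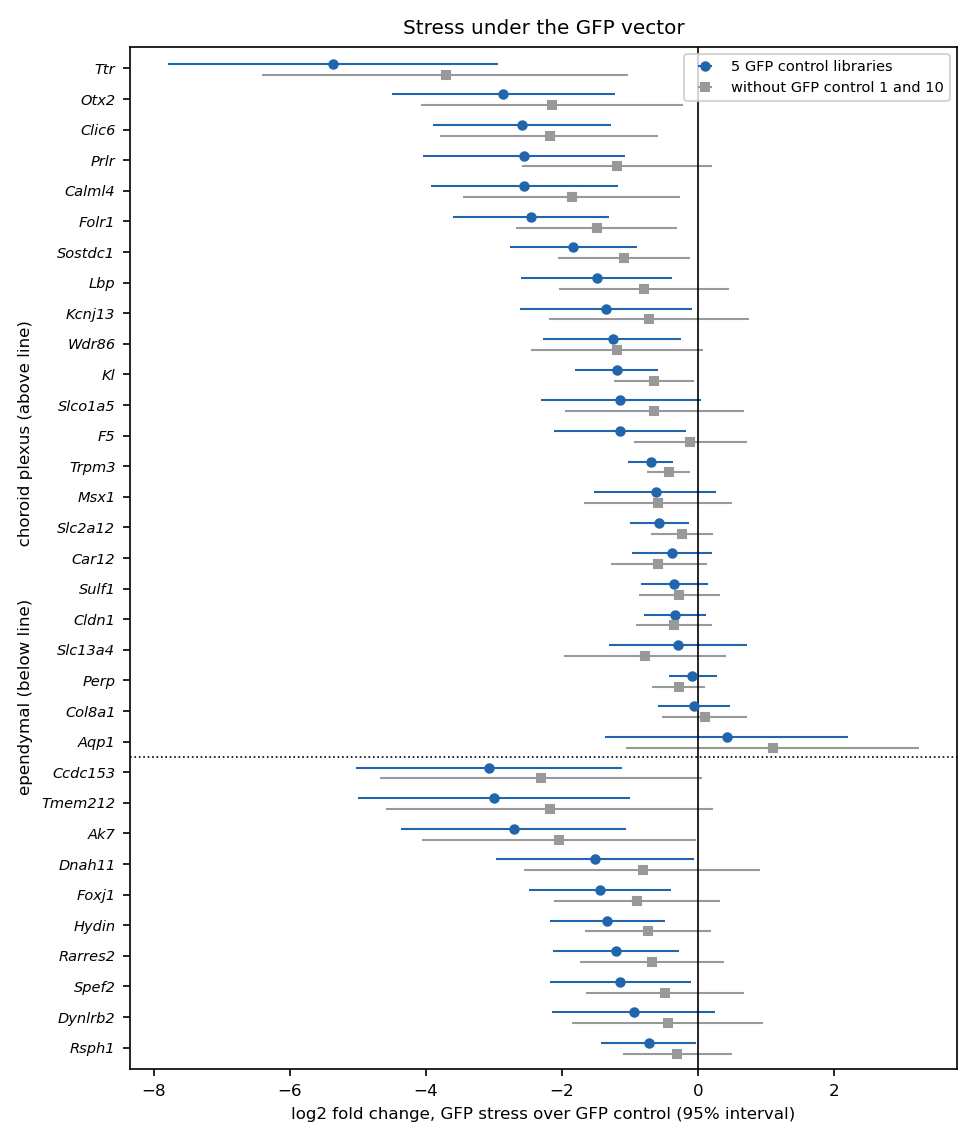
Log2 fold change of GFP stress over GFP control with its 95% interval for the 33 members kept, choroid plexus above and ependymal below the dotted line, from all 5 GFP control libraries (blue circles) and without GFP control 1 and 10 (grey squares). All ependymal members and 22 of 23 choroid plexus members lie left of 0 in blue; Ttr moves to -3.71 and F5 to -0.11 in grey.

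Markers of neighbouring brain regions moved with this difference. The 12 striatal neuron markers, Drd2 and Adora2a among them, had a median log2 fold change of -1.30. Of these, 12 of 12 were below 0 (51.6% of all genes) and 10 were lower at an unadjusted p under 0.05 (7.96%). Their summed level was 10809 to 68272 normalized counts in GFP stress and 32476 to 83241 in GFP control. The 8 septal markers, Zic1, Zic4 and Nts among them, had a median of -1.57 with 8 of 8 below 0 and 7 lower, and sums of 1481 to 2449 in GFP stress against 2519 to 6258 in GFP control, without overlap. The 6 markers of cortical excitatory neurons had a median of 0.37 with 6 of 6 above 0. No marker of these lists was at 0 in any library, and the medians of 9 astrocyte and 12 meningeal markers were -0.08 and -0.06. The values of these lists include GFP control 1 and 10 and are not given without that pair. The part of these regions in the members' difference was not tested.

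Of the 4 libraries of lowest striatal level, 3 were also the lowest in the ependymal members. The mean centred log2 level of the striatal markers was -1.96, -2.37 and -2.36 in GFP stress 5, 12 and 20, where that of the ependymal members was -1.78, -2.11 and -1.99. GFP stress 21 had a striatal level of -2.13 with an ependymal level of -0.73. ZBTB7A control 6 was highest in both, at 2.0 and 2.03. GFP control 1 and 10 were high in the ependymal members, at 1.96 and 1.57, with striatal levels of 0.02 and -0.47. GFP control 11 went the other way, with a striatal level of 0.83 and an ependymal level of -1.22.

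**Figure D4:**
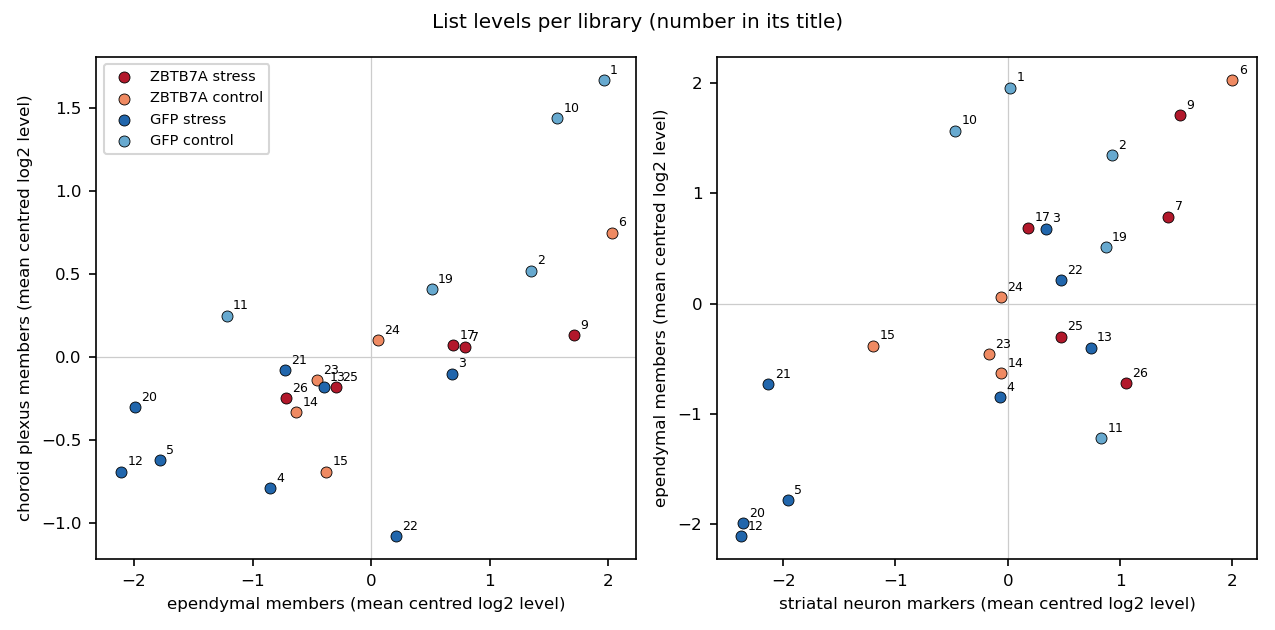
Mean centred log2 level per library of the choroid plexus members against the ependymal members (left) and of the ependymal members against the striatal neuron markers (right); each point is a library with its title number, coloured by group. GFP control 1 and 10 lie top right at left; GFP stress 5, 12 and 20 lie bottom left at right, with GFP stress 21 above them, and ZBTB7A control 6 top right.

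ZBTB7A stress was compared with GFP stress (n = 5 and 8) to ask what the ZBTB7A vector did in defeated mice; it shares the GFP stress libraries with the comparison above. The ependymal members stood higher in ZBTB7A stress. In limma 0 of 33 members passed (0.0% of all genes; smallest adjusted p 0.183). At an unadjusted p under 0.05, 6 of 10 ependymal and 6 of 23 choroid plexus members were higher (9.13% of all genes) and 0 lower (6.95%). The medians were 1.03 for the ependymal members, with 10 of 10 above 0, and 0.31 for the choroid plexus members, with 17 of 23 above 0 (51.4% of all genes). Trpm3 was the 1 member whose groups did not overlap (0.458% of all genes higher and 0.543% lower without overlap). It was at 745 ± 87.0 in ZBTB7A stress and 573 ± 54.7 in GFP stress (SD, n = 5 and 8). Its log2 fold change was 0.38 ± 0.16 (SE, exact permutation p = 0.000777). That permutation p is the smallest possible and mostly restates the lack of overlap. The unadjusted limma p was 0.0253.

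Car12 had the smallest p of the members, at 628 ± 146 in ZBTB7A stress and 328 ± 140 in GFP stress (SD, n = 5 and 8), a log2 fold change of 1.02 ± 0.28 (SE; adjusted p = 0.183; exact permutation p = 0.0109). Clic6 had 1.95 ± 0.63 (adjusted p = 0.195; exact permutation p = 0.00932, n = 5 and 8), Otx2 2.0 ± 0.79 (exact permutation p = 0.0148), Kl 0.70 ± 0.30 (exact permutation p = 0.0132) and Folr1 1.02 ± 0.56 (exact permutation p = 0.0365). Among ependymal members Tmem212 had 2.63 ± 0.96 (exact permutation p = 0.0404, n = 5 and 8), Ak7 1.97 ± 0.80 (exact permutation p = 0.0614), Ccdc153 2.28 ± 0.94 (exact permutation p = 0.0373) and Foxj1 1.06 ± 0.50 (exact permutation p = 0.0575). Ttr had the opposite sign, at 12.1 ± 8.97 in ZBTB7A stress and 130 ± 235 in GFP stress, a log2 fold change of -1.23 ± 1.17 (exact permutation p = 0.379) that was -0.57 without GFP stress 21 and -0.73 without GFP stress 3. Within the number runs the mean difference of the ependymal level was 1.90, 1.95 and 0.33, with ZBTB7A stress 17 alone for its group in run 2.

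In the same comparison all 12 striatal markers were higher in ZBTB7A stress at an unadjusted p under 0.05 (9.13% of all genes). Their median was 1.76, with sums of 44805 to 114105 in ZBTB7A stress and 10809 to 68272 in GFP stress. The septal markers had a median of 1.00 with 7 of 8 above 0 (51.4% of all genes). Their sums were 2155 to 4690 in ZBTB7A stress and 1481 to 2449 in GFP stress. The part of both lists in the members' difference was not tested. With array weights limma called 7 members higher, Car12, Kl, Otx2, Clic6, Trpm3, Tmem212 and Ak7. Over all genes it called 2287 in either direction (14%), 1182 of them higher. edgeR called 0 members, and DESeq2 called 0 members beside 0.281% of all genes.

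Without stress, ZBTB7A control was compared with GFP control (n = 5 each), the question being the effect of the ZBTB7A vector alone; this shares the GFP control libraries with the comparison of stress under GFP. The choroid plexus members stood lower in ZBTB7A control, with 22 of 23 below 0 (55.3% of all genes), a median of -0.61 and 8 lower at an unadjusted p under 0.05 (0.995% of all genes) and 0 higher (0.738%). In limma, edgeR and DESeq2 0 members passed (0.0% of all genes; smallest adjusted p in limma 1.0), and the groups overlapped for all members (0.11% of all genes lower and 0.116% higher without overlap). The 10 ependymal members were all below 0 with a median of -0.58, and 0 had an unadjusted p under 0.05. Kl had the smallest p, at 62.1 ± 28.4 in ZBTB7A control and 163 ± 95.6 in GFP control (SD), a log2 fold change of -1.31 ± 0.33 (SE; exact permutation p = 0.0317, n = 5 each). Sostdc1 had -1.70 ± 0.50 (exact permutation p = 0.0397, n = 5 each), the glucose transporter gene Slc2a12 -0.65 ± 0.24 (exact permutation p = 0.0873) and Otx2 -2.36 ± 0.88 (exact permutation p = 0.0635). Ttr was at 177 ± 163 in ZBTB7A control and 2747 ± 3326 in GFP control, -3.18 ± 1.30 (exact permutation p = 0.0397, n = 5 each), and Folr1 had -1.59 ± 0.62 (exact permutation p = 0.0952). Among ependymal members Hydin had -0.65 ± 0.46, Ccdc153 -1.24 ± 1.05 and Foxj1 -0.59 ± 0.56 (log2, SE).

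These values depended on single libraries. Without GFP control 1 and 10 the medians were -0.33 and -0.05, 2 choroid plexus members (Kl at -0.75 ± 0.30 and Perp at -0.43 ± 0.20) were lower at an unadjusted p under 0.05 (1.44% of all genes). Without that pair Ttr had -1.52 ± 1.39, Otx2 -1.65 ± 1.0, Sostdc1 -0.96 ± 0.50, Folr1 -0.62 ± 0.61, Slc2a12 -0.32 ± 0.24, Ccdc153 -0.47 ± 1.22, Hydin -0.05 ± 0.48 and Foxj1 -0.05 ± 0.63, with 95% intervals that held 0. The ependymal median was -0.35 without GFP control 1 and -1.01 without GFP control 11 or without ZBTB7A control 6. Within the number runs the difference of the ependymal level was 0.37, -0.68 and -0.71. ZBTB7A control 6 in run 1 and GFP control 19 in run 3 each stood alone for their group. The log2 fold changes of Foxj1, Hydin and Ccdc153 ran from -0.28 to -1.01, from -0.38 to -1.03 and from -0.55 to -1.97 as single libraries were left out. The striatal and septal markers had medians of -0.37 and -0.72.

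Under the ZBTB7A vector, ZBTB7A stress was compared with ZBTB7A control (n = 5 each), which asks for the effect of defeat in those mice. The median was 0.07 for the choroid plexus members, with 14 of 23 above 0, and 0.25 for the ependymal members, with 10 of 10 above 0, against 0.01 and 52.5% above 0 over all genes. In limma and edgeR 0 members passed (0.0% of all genes; smallest adjusted p in limma 1.0), and DESeq2 called 0 members beside 0.0061% of all genes. At an unadjusted p under 0.05, 1 choroid plexus member was lower (0.58% of all genes) and 3 were higher (1.08%), with 0 ependymal members in either direction. Ttr was the lower one, at 12.1 ± 8.97 in ZBTB7A stress and 177 ± 163 in ZBTB7A control (SD), a log2 fold change of -3.43 ± 1.30 (SE; exact permutation p = 0.0159, n = 5 each). The higher ones were Kl at 0.81 ± 0.33 (exact permutation p = 0.0556, n = 5 each), Car12 at 0.78 ± 0.32 (exact permutation p = 0.0317) and Perp at 0.45 ± 0.19 (exact permutation p = 0.0556). Within the number runs the difference of Ttr was -4.69, -1.68 and -4.71. ZBTB7A control 6 in run 1 and ZBTB7A stress 17 in run 2 each stood alone for their group. The difference with stress had the same sign under both vectors for Ttr and opposite signs for Kl. Wdr86, a WD repeat protein gene, was the 1 member whose groups did not overlap (0.177% of all genes lower and 0.244% higher without overlap). It was at 5.78 ± 2.61 in ZBTB7A stress and 11.1 ± 2.08 in ZBTB7A control, with a log2 fold change of -0.92 ± 0.54 (exact permutation p = 0.00794, n = 5 each). Groups of 5 without overlap always give this permutation p, so it only restates the lack of overlap. The unadjusted limma p was 0.104.

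Foxj1 had 0.21 ± 0.56, Folr1 0.16 ± 0.62, Otx2 1.5 ± 0.88, Rarres2 0.38 ± 0.49 and Tmem212 0.83 ± 1.07 (log2, SE) in this comparison. With 1 library left out, the value of Foxj1 turned below 0 when that was ZBTB7A stress 9 or ZBTB7A control 23. For Folr1 this was so of 4 libraries, ZBTB7A stress 9 and 17 and ZBTB7A control 23 and 24. The choroid plexus median was 0.46 without ZBTB7A control 6, 0.19 and 0.27 without ZBTB7A stress 25 and 26, 0.01 without ZBTB7A stress 9, and -0.05 and -0.03 without ZBTB7A control 15 and 23. The ependymal median was 0.67 without ZBTB7A control 6, -0.04 without ZBTB7A stress 9 and 0.09 to 0.52 without each other library of these groups. Within the number runs the difference of the ependymal level was -0.78, 1.19 and -0.31. Here too ZBTB7A control 6 in run 1 and ZBTB7A stress 17 in run 2 stood alone for their groups. The striatal markers had a median of 0.83 with 12 of 12 above 0 (52.5% of all genes).

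The difference between the vector effects with and without stress, tested as an interaction over all 4 groups, was above 0 in 21 of 23 choroid plexus and 10 of 10 ependymal members (52.4% of all genes). In limma 0 members passed (0.0% of all genes; smallest adjusted p 0.668), and 12 choroid plexus and 6 ependymal members had an unadjusted p under 0.05 in the higher direction (5.64% of all genes) and 0 in the lower (1.78%). The medians were 1.15 and 1.62. Kl had 2.0 ± 0.44, Clic6 3.84 ± 0.94, Otx2 4.36 ± 1.18, Tmem212 3.83 ± 1.44 and Foxj1 1.65 ± 0.75 (log2, SE). Without ZBTB7A control 6 the call passed for Otx2 and Clic6 and for 79 genes in all (0.482%), DESeq2 called Kl beside 0.0183% of all genes, and limma with array weights called 15 members beside 12.6% of all genes. The 12 striatal markers all had an unadjusted p under 0.05 here, with a median of 2.01. Without GFP control 1 and 10 the medians were 0.74 and 1.02. Averaged over stress, the vector effect had medians of -0.15 for the choroid plexus members, with 14 of 23 below 0 (50.7% of all genes), and 0.23 for the ependymal members, with 10 of 10 above 0 (49.3%). Single libraries moved these medians: leaving out ZBTB7A stress 9 gave 0.10 for the ependymal members, leaving out ZBTB7A control 6 gave 0.03, and leaving out GFP control 11 gave -0.01. For the choroid plexus members, leaving out ZBTB7A control 6 gave -0.28 and leaving out GFP control 1 gave -0.07. With GFP control 1 and 10 both left out the medians were -0.01 for the choroid plexus and 0.49 for the ependymal members. In limma and edgeR 0 members passed (0.0% of all genes), while 3 choroid plexus members were lower (3.31% of all genes) and 1 higher (2.76%) at an unadjusted p under 0.05. Ttr had a log2 fold change of -2.21 ± 0.87 (SE) and was called by DESeq2, beside 0.0427% of all genes.

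Other genes of these tissues, from lists that share no symbol with the members, were read in the same fits. Of 24 further choroid plexus genes 19 were tested. In GFP stress against GFP control 18 of 19 were below 0 (51.6% of all genes), with a median of -0.37. At an unadjusted p under 0.05, 9 were lower (7.96% of all genes). The mean centred log2 level of this list was 0.46 and 0.55 in GFP control 1 and 10, and -0.08 to 0.24 in the other GFP control libraries. The angiotensin-converting enzyme gene Ace was at 317 ± 53.4 in GFP stress and 465 ± 70.7 in GFP control (SD, n = 8 and 5; log2 fold change -0.55 ± 0.14, SE), and the serotonin receptor gene Htr2c at 902 ± 240 in GFP stress and 1399 ± 374 in GFP control (-0.63 ± 0.21). The cotransporter gene Slc12a2 had -0.48 ± 0.17. Most of these are also expressed by neurons, vessels or glia of the cortex. In ZBTB7A stress against GFP stress 13 of 19 were above 0 (51.4% of all genes) with a median of 0.16. In ZBTB7A control against GFP control 17 of 19 were below 0 (55.3% of all genes) with a median of -0.30.

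Of 35 further motile cilium genes 33 were tested, and they followed the ependymal members. In GFP stress against GFP control 32 of 33 were below 0 (51.6% of all genes), with a median of -0.94. At an unadjusted p under 0.05, 27 were lower (7.96% of all genes). The mean centred log2 level of this list was 1.17 and 0.92 in GFP control 1 and 10, and -0.60 to 0.81 in the other GFP control libraries. The dynein heavy chain gene Dnah5 was at 170 ± 21 in GFP stress and 285 ± 94.3 in GFP control (SD, n = 8 and 5; -0.68 ± 0.16, SE), and Ccdc40, needed to assemble the axoneme, at 46.4 ± 19.6 in GFP stress and 120 ± 49.3 in GFP control (-1.34 ± 0.36). In ZBTB7A stress against GFP stress 32 of 33 were above 0 (51.4% of all genes), with a median of 0.70. At an unadjusted p under 0.05, 14 were higher (9.13% of all genes). Ccdc40 was there at 99.6 ± 50.5 in ZBTB7A stress and 46.4 ± 19.6 in GFP stress (1.08 ± 0.36). In ZBTB7A control against GFP control the median was -0.30, and in ZBTB7A stress against ZBTB7A control it was 0.14. In the main limma fit none of these genes passed over all genes (smallest adjusted p 0.188 and 0.32 in the comparisons with GFP stress).

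Over 13397 genes with a mean of 50 or more that are no members, those most like the mean of the ependymal members across the 23 libraries, with group means removed, were Cdhr4 (r = 0.98), the axonemal dynein genes Dnaic2 (0.96) and Dnah12 (0.95), Ttc21a (0.95) and Drc7, a subunit of the nexin-dynein regulatory complex (0.95). Most like the mean of the choroid plexus members were Zic2 (r = 0.87), a transcription factor of septum and meninges, Mthfd2 (0.84), Vangl1 (0.83), Gm15417 (0.82), Zic5 (0.81), Myo10 (0.81), BC067074 (0.80), Adamts1, Rida and Agtrap (0.79 each). Of these 10, 8 were highest in ZBTB7A control 6.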

How the data were processed

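The deposited table gives, for each of 23 libraries, normalized counts, a signal that the authors made by scaling each library's read counts with its own size factor. The submitters' processing notes list HISAT2 (2.1.0), featureCounts (2.0.1), DESeq2 (2.11.40.6) and the builds mm10 and mm9, with no role, so no gene positions are taken from the table. Per the labels' protocols, RNA came from a Trizol extraction with an RNeasy column cleanup, and libraries from a TruSeq RNA v2 kit. Values carry no correction for gene length, so levels are not compared between genes. For every library 100% of the values lay within 0.02 reads of a whole number of reads, which gave back the reads.

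Of 27606 entries 428 identical repeats were removed. Values were tested as log2(normalized count + 1), which understates fold changes of low genes, in 1 limma model (3.58.1, R 4.3.3, trended, robust) with a mean for each of 4 groups and 6 two-sided contrasts, adjusted by Benjamini-Hochberg over all tested genes. Single members also had exact two-sided permutation tests over libraries. The level of a gene list is the average over its genes of log2 values centred on each gene's mean. The model was tested on simulated data. Alternatives were a pseudocount of 5, filters (none, or mean 50), TMM scaling, reads tested with edgeR (4.0.16) or DESeq2 (1.42.0), number run as a covariate, only the groups compared, array weights, an adjusted p under 0.1 and each library left out. Tables used Python 3.11.15, pandas 2.3.3, numpy 2.4.6, scipy 1.17.1 and matplotlib 3.10.9.

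The members and lists were chosen with earlier results of these data known. The naming rule took Ttr, Foxj1, Otx2, Kl and Folr1 and, in each contrast of 2 groups, the 3 choroid plexus and 2 ependymal members of smallest p, with the genes most like each mean and those of smallest p in each list; other members named were chosen after their values were seen.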

Additional observations from a re-analysis of the deposited data

Results flagged for a closer look

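Within groups of 5 or 8 libraries, the gap of the highest or lowest library to its neighbour was set against the group's range on the log2 scale, by Dixon's critical values. Of 140 sets of values 9 passed, and chance alone gives about 7.0 (1 in 20). Of the 9, 6 concern ZBTB7A control 6, which was far above the other 4 libraries of its group in Rarres2 (201 normalized counts), Dynlrb2 (68.2), Ak7 (283), Hydin (233) and Rsph1 (271), and in the mean centred log2 level of the ependymal members (2.03). These 5 genes move together, so the flags are not independent. The same library had the highest striatal level, 2.0, and the highest septal level, 1.84, and the fewest recovered reads, 12479203. Their part was not tested. In GFP control 11 the dynein heavy chain gene Dnah11 was far below its group, at 9.28. Car12 was at 249 in GFP control 10, below the other 4 libraries of GFP control, although that library was among the highest for Ttr. The organic anion transporter gene Slco1a5 was at 0.0 in GFP stress 5, a gene near the lower limit of counting in most libraries.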

How the results depend on the processing

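No paired analysis was possible because no title number is shared between groups. Array weights moved the number of genes past the threshold to 2287 for the vector with stress (7 members), to 668 for stress under GFP (14 members; choroid plexus median -0.68) and to 2068 for the interaction (15 members). DESeq2 called 46, 39 (8 members), 1, 7 (1 member) and 3 genes (1 member) for the vector with stress, stress under GFP, stress under ZBTB7A, the vector averaged and the interaction. A fit of only the groups compared called 2 genes for the vector with stress, and an adjusted p under 0.1 called 1 gene for the interaction. With a mean of 50 or more the choroid plexus median for stress under GFP was -0.47, since low genes were left out, and without GFP control 1 and 10 it was -0.64. Over single libraries left out, genes past the threshold ranged from 0 to 3 for the vector with stress (3 without GFP stress 13) and from 0 to 79 for the interaction (79 and 2 members without ZBTB7A control 6; members otherwise 0). The log2 fold change for stress under ZBTB7A ranged from -0.05 to 0.62 for Foxj1 and from -0.17 to 0.63 for Folr1, which was -0.05 in DESeq2. The causes were not tested. Of the other values, 1120 single-gene settings kept direction and side of the threshold and 18 turned to calls. Depth limits Slc4a5, Cldn2, Tmem72, Kcne2, Steap1, Folr1, Otx2, Slco1a5 and Calml4, with few reads in many libraries.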

Other observations

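GFP control 1 held the highest value of 15 of 28 choroid plexus members and GFP control 10 that of 6. Of the ependymal members, 5 of 10 were highest in ZBTB7A control 6 and 3 in GFP control 1. Prlr was at 428 normalized counts in GFP control 1 and 173 in GFP control 10, whereas Aqp1 was at 84.4 in GFP control 1 and 155 in GFP control 10.

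Blood genes, 4 globin genes and Alas2, had summed normalized counts of 198 to 449 in ZBTB7A stress, 193 to 2452 in ZBTB7A control, 167 to 2880 in GFP stress and 171 to 249 in GFP control. The highest blood sums were those of GFP stress 13 and ZBTB7A control 23, which also held the highest Aqp1, at 481 and 325.

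Markers of neuroblasts and the olfactory bulb (10 genes) had sums of 2907 to 5570 in ZBTB7A stress, 2915 to 6234 in ZBTB7A control, 2426 to 10155 in GFP stress and 2587 to 4752 in GFP control. The highest was GFP stress 21, which within its group also held the highest Ttr, at 655, and the highest Dnah11, at 112 against 7.63 to 77.2 in the other libraries of that group.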
